A study of Rattus norvegicus with 6 samples.

Results

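Committed oligodendrocyte precursors and newly formed oligodendrocytes were read out in single-nucleus RNA data of rat brain taken 48 h after the right middle cerebral artery had been permanently closed with a filament (MCAO). The nuclei were chosen by their unique molecular identifiers (UMIs, 1 per captured RNA molecule): at least 2 UMIs of Neu4, Bmp4, Gpr17 and Enpp6 together, at least 2 of Bcas1, Tns3, Itpr2 and Fyn together, none of Pdgfra or Cspg4, and at most 3 of Snap25, Syt1 and Rbfox3 together. This left 356 nuclei, hereafter COP/NFOL nuclei, of 73649 nuclei that held at least 500 UMIs, 250 to 5000 genes and at most 5% mitochondrial UMIs, which is 0.483%. The 13 genes of the choice, among them the limit genes of precursors and neurons, were therefore only described and never tested.

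All animals were male wild-type Wistar rats, 12 weeks old, and each library pooled the nuclei of 1 hemisphere from several rats. The tissue was not the whole hemisphere but coronal slices from the region where MRI had shown the infarctions at their largest. Sham L and Sham R came from the left and right hemispheres of the same 4 Sham-operated rats. The mMCAO pools came from 3 rats with a moderate infarction and the sMCAO pools from 4 rats with a severe one, with the hemisphere away from the lesion (contra) and that of the lesion (ipsi) kept apart. Sham, MCAO contra and MCAO ipsi thus had 2 libraries each, the 2 MCAO libraries of a side differed in severity, and both sides came from the same rats. Wherever 6 values stand in a row, the Sham values (left, then right) come first, the contra values (mMCAO, then sMCAO) next, and the ipsi values (mMCAO, then sMCAO) last. In this order the libraries held 44214966, 34777290, 52513380, 34519202, 44829633 and 33012945 UMIs, all barcodes included. Levels are given in CPM, that is UMI counts summed over the nuclei of 1 kind in 1 library and scaled to a total of 1000000 UMIs.

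Oligodendrocyte precursor cells (OPCs) divide and carry the PDGF receptor alpha and the proteoglycan NG2, the products of Pdgfra and Cspg4. When they commit to differentiation they lose both, pass through a short premyelinating stage marked by Gpr17, Bmp4 and Neu4, and then switch on Enpp6, Bcas1 and Tns3 as newly formed oligodendrocytes before they wrap axons and make the full set of myelin proteins. In adult brain this stage is rare, and it is known to be held back or lost in damaged white matter.

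For Tmem108, Rras2 and Tcf7l2, 3 genes outside the choice that were higher in COP/NFOL nuclei than in either neighbouring stage, and for Enpp6, which most of these nuclei carried, the promoters are shown from 250 bases before to 50 after the start of the gene, from RefSeq on GRCr8, a later rat build than the mRatBN7.2 used for the counts. They lie at chr16:52026679-52026978 on the minus strand (Enpp6), chr1:264791085-264791384 on the plus strand (Tcf7l2), chr8:113238874-113239173 on the minus strand (Tmem108) and chr1:177737502-177737801 on the minus strand (Rras2). Capitals mark ACAANG on either strand, a short form of the letters that SOX transcription factors such as Sox10 are known to bind.
Enpp6: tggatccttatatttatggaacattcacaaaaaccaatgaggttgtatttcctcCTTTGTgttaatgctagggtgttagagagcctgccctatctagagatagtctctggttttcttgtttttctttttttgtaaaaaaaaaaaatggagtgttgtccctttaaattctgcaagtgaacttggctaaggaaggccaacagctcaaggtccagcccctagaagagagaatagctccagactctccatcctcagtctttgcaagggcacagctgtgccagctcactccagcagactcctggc
Tcf7l2: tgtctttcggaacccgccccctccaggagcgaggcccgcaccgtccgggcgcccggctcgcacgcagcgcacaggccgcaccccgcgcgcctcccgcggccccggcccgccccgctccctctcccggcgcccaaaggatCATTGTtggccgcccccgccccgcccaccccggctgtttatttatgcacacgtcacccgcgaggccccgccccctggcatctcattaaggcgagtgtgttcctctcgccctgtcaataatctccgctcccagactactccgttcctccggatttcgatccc
Tmem108: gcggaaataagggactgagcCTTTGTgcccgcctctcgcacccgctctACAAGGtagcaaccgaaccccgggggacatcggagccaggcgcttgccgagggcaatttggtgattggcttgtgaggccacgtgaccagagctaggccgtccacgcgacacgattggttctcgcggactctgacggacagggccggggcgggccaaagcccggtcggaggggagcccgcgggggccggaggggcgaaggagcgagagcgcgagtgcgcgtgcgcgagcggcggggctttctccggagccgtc
Rras2: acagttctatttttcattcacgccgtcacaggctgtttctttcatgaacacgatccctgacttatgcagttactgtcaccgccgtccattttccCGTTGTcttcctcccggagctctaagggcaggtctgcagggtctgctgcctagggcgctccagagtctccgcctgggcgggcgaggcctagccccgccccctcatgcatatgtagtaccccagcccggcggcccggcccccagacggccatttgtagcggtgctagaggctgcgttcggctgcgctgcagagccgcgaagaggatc
Of 6 promoters searched, those of Frmd4a and Col11a1 held no match and are not shown. Tmem108 held 2 matches and the other 3 genes 1 each, none of which overlapped an E-box (CANNTG, found in 72.1% of promoters). ACAANG occurred in 42.1% of 33469 RefSeq promoters of the same length, and 11.9% held 2 or more, so the letters are common and mark no binding site by themselves.

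COP/NFOL nuclei were found in every library, with 56, 48, 76, 43, 61 and 72 nuclei. Their share of the nuclei of a library was 0.427% (95% exact binomial interval 0.322 to 0.554) and 0.352% (0.260 to 0.467) in Sham, 0.524% (0.413 to 0.656) and 0.398% (0.288 to 0.536) in MCAO contra, and 0.471% (0.361 to 0.605) and 0.831% (0.651 to 1.05) in MCAO ipsi. The share was highest in sMCAO ipsi, the other 5 libraries had overlapping intervals, and the interval of sMCAO ipsi reached only that of mMCAO contra. The 2 MCAO ipsi libraries differed from each other more than mMCAO ipsi differed from Sham. These intervals cover counting error only. With 2 libraries a group, an exact permutation test cannot give a two-sided p below 0.333, so the shares were not tested. Counted among the nuclei of the lineage alone (OPC, COP/NFOL and mature oligodendrocyte nuclei, as chosen below), COP/NFOL nuclei made up 9.17%, 22.1%, 6.74%, 5.49%, 8.03% and 5.82%. On that base Sham R was highest, with only 155 mature and 14 OPC nuclei, and sMCAO ipsi was no longer the highest, since its OPC nuclei (283, 3.27% of all nuclei) and mature nuclei (883, 10.2%) were more frequent too. The side of a Sham library was taken from its label alone, and the Sham libraries entered every comparison between groups as 1 group. The study reports more nuclei of its myelinating and mature oligodendrocyte cluster in Sham R than in Sham L. Here the order was the reverse, with 537 mature nuclei in Sham L and 155 in Sham R. Whether the 2 labels are exchanged was not tested.

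**Figure D1:**
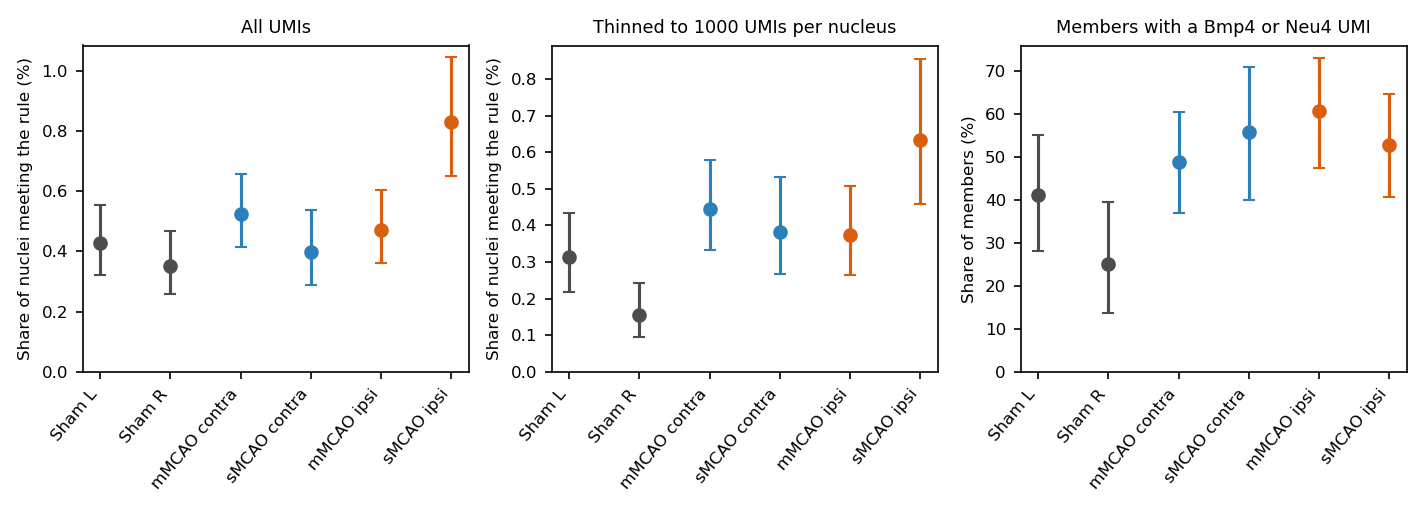
Share of nuclei that met the rule in each library (left, % of nuclei within the limits), the same after each nucleus had been thinned to 1000 UMIs (middle), and the share of COP/NFOL nuclei with a Bmp4 or Neu4 UMI (right, %). Points are single libraries (grey Sham, blue MCAO contra, orange MCAO ipsi) and bars are exact 95% binomial intervals. sMCAO ipsi was highest at 0.831% and 0.634%, and Sham R was lowest in all 3 panels.

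Depth differed between libraries, and the rule needs several UMIs in 1 nucleus. COP/NFOL nuclei had a median of 1286, 951.5, 1813, 1326, 1313 and 2180 UMIs. When nuclei under 1000 UMIs were left out and all others were thinned to 1000 UMIs before the rule was applied, the shares were 0.313%, 0.156%, 0.444%, 0.383%, 0.372% and 0.634%. sMCAO ipsi stayed highest and Sham R fell most in proportion, from 0.352% to 0.156%. The shallow nuclei left out numbered 1942, 1434, 2323, 1657, 2476 and 1885.

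The libraries also differed in how much neuronal RNA the chosen nuclei carried. COP/NFOL nuclei without any UMI of Snap25, Syt1 or Rbfox3 made up 32.1%, 25.0%, 36.8%, 39.5%, 55.7% and 73.6%. When no such UMI was allowed at all, the share of nuclei that met the rule was 0.137%, 0.0881%, 0.193%, 0.157%, 0.263% and 0.612%. Under that limit both MCAO ipsi libraries lay above the other 4. Mitochondrial transcripts made up 0.0481%, 0.0247%, 0.0334%, 0.0417%, 0.0982% and 0.312% of the UMIs of COP/NFOL nuclei, again highest in sMCAO ipsi, where they also made up most in all nuclei together (0.213%). Any 2 libraries shared between 118 and 280 cell barcodes, but none of the 356 nuclei had a barcode that occurred among the COP/NFOL nuclei of another library.

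At the edges of the rule, 144 of the 356 nuclei had exactly 2 UMIs of Neu4, Bmp4, Gpr17 and Enpp6 and so stood just inside, while 525 nuclei with exactly 1 met all other limits and stood just outside. At the neuronal limit 26 nuclei were inside with 3 UMIs and 16 outside with 4, and 29 nuclei were left out for a single Pdgfra or Cspg4 UMI. Requiring 3 in place of 2 UMIs of the first gene set gave 0.213%, 0.205%, 0.345%, 0.296%, 0.270% and 0.450%, with sMCAO ipsi again the highest.

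The chosen nuclei were mainly Enpp6 nuclei. Of the 356, 308 (86.5%) held an Enpp6 UMI and 171 (48.0%) a Bmp4 or Neu4 UMI, and 125 held both. Enpp6, a choline phosphodiesterase of newly formed oligodendrocytes, stood at 1800.3, 2346, 1634, 1712, 1576 and 1267 CPM. Bcas1, a protein of early myelinating cells, stood at 8373, 7449, 7657, 10158, 8288 and 7246 CPM and was found in 91.7% to 98.7% of the nuclei of a library. Gpr17, a receptor of the earliest committed stage, was rare. It reached only 123, 61.7, 74.9, 115, 129 and 63.1 CPM and had a UMI in 6.25% to 18% of the nuclei. These levels were chosen by the rule and describe the nuclei only.

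Outside the lineage the markers were looked up in 1 kind of nuclei. Among glutamatergic neuron nuclei, taken as nuclei with at least 2 Slc17a7 UMIs, Enpp6 was found in 0.616% to 1.82%, Bmp4, Neu4 and Gpr17 each in at most 0.610%, Bcas1 in 3.20% to 5.62%, Tns3 in 3.68% to 11.6% and Itpr2 in 7.2% to 15.5%, and the medians of these nuclei were 3621 to 9415 UMIs. Fyn, a kinase that neurons use too, was found in 53.9% to 77.9% of them, so a Fyn UMI by itself says little about the kind of nucleus. The 8 lineage transcription factors fixed as markers (Sox10, Olig1, Olig2, Sox8, Nkx2-2, Zfp488, Myrf and Tcf7l2) were not part of the rule. They summed to 2750, 3436, 3594, 2777, 2525 and 2557 CPM in COP/NFOL nuclei, against 372 to 520 CPM in OPC nuclei, 507 to 746 CPM in mature oligodendrocyte nuclei and 11.1 to 18.2 CPM in glutamatergic nuclei, and Tcf7l2 gave most of the UMIs (1344). All 8 had UMIs in COP/NFOL nuclei. Of the 356 nuclei, 108 also held at least 3 UMIs of the mature genes Mog, Mag, Mobp and Aspa, and 6 were among the 5% of nuclei with the highest doublet score of their library.

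To see what set the stage apart from its neighbours, COP/NFOL nuclei were compared with 604 OPC nuclei (at least 2 UMIs of Pdgfra and Cspg4, fewer than 2 of Neu4, Bmp4, Gpr17 and Enpp6) and with 3776 mature oligodendrocyte nuclei (at least 3 UMIs of Mog, Mag, Mobp and Aspa, none of the same 4 or of Pdgfra and Cspg4), both with the same neuronal limit. UMIs were summed per library and kind of nucleus, and edgeR's quasi-likelihood test with library as a block compared the sums, with Benjamini-Hochberg adjustment. Genes with an adjusted p under 0.05 that also differed by 0.6 or more on the log2 scale, up or down, were called. Against OPC nuclei 798 of 2087 tested genes were called (38.2%), 419 higher (20.1%) and 379 lower (18.2%) in COP/NFOL nuclei. Against mature nuclei 925 of 3149 were called (29.4%), 443 higher (14.1%) and 482 lower (15.3%). Without the filter on low counts the calls leaned to the lower side, with 650 higher and 922 lower against OPC nuclei and 535 higher and 988 lower against mature nuclei. The 2 comparisons share the sums of the COP/NFOL nuclei. Since the nuclei were sorted by genes of this same lineage, a call says that a gene's level goes with those genes, not that its change was found independently.

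Arhgef37, of an exchange factor for small GTPases, had 136 UMIs in COP/NFOL and 2 in OPC nuclei, so its fold is uncertain. Tmem108, a transmembrane protein, had large increases on both sides. It stood at 6560.0, 6317, 6385, 6819.9, 4845 and 4982 CPM in COP/NFOL nuclei, at 41.3, 80.1, 93.1, 106, 98.6 and 85.3 CPM in OPC nuclei and at 93.0, 209.6, 52.8, 102, 51.6 and 48.3 CPM in mature nuclei. The lowest COP/NFOL library was thus far above the highest OPC and the highest mature library. The difference was large against OPC nuclei (log2 fold change 6.01, SE 0.25, adjusted p = 4.83e-12, edgeR) and against mature nuclei (log2 fold change 6.39, SE 0.21, adjusted p = 3.94e-13, edgeR). Frmd4a, a scaffold protein of cell polarity, followed the same course. Its level was 22380.3, 25885, 21250.2, 18862, 17999.7 and 16436 CPM in COP/NFOL nuclei, with a mean ± SD of 776 ± 211 CPM in OPC and 784 ± 409 CPM in mature nuclei (n = 6 libraries each), and the log2 fold changes were 4.77 and 4.99.

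Tcf7l2, a Wnt effector that is known to peak as precursors stop dividing and begin to differentiate, rose most among the lineage factors against mature nuclei together with Sox6. Its level was 2133, 2634, 2587, 2115, 1921 and 1938 CPM in COP/NFOL nuclei, 248, 160.2, 146, 241, 238 and 283 CPM in OPC nuclei and 123, 277, 157, 149, 115 and 127 CPM in mature nuclei. All 6 libraries of COP/NFOL nuclei lay above all 12 other values, with log2 fold changes of 3.31 (SE 0.23) against OPC and 4.02 (SE 0.14) against mature nuclei. Against OPC nuclei 20.1% of all tested genes were called higher and 18.2% lower. Of the 13 tested lineage transcription factors 7 rose and 5 fell against OPC nuclei, with a median log2 fold change of 1.16 beside -0.00 over all tested genes. Those that rose were Zfp365 (3.63), Tcf7l2, St18, Myrf (3.08), Sox10 (1.59), Zeb2 and Zfp536, and those that fell were Prrx1, Sox5 (-2.08), Nfib, Etv1 and Nfia. Myrf is the master factor of myelin genes, Sox10 the factor of the whole lineage, and Sox5 a factor of the precursor stage. Against mature nuclei 5 of 12 rose (Sox6, Tcf7l2, Zfp365, Sox5 and Sox10) and 3 fell (Zfp536, St18 and Nfia), with a median of 0.15 beside 0.02 over all tested genes. There 14.1% of all tested genes were called higher and 15.3% lower.

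**Figure D2:**
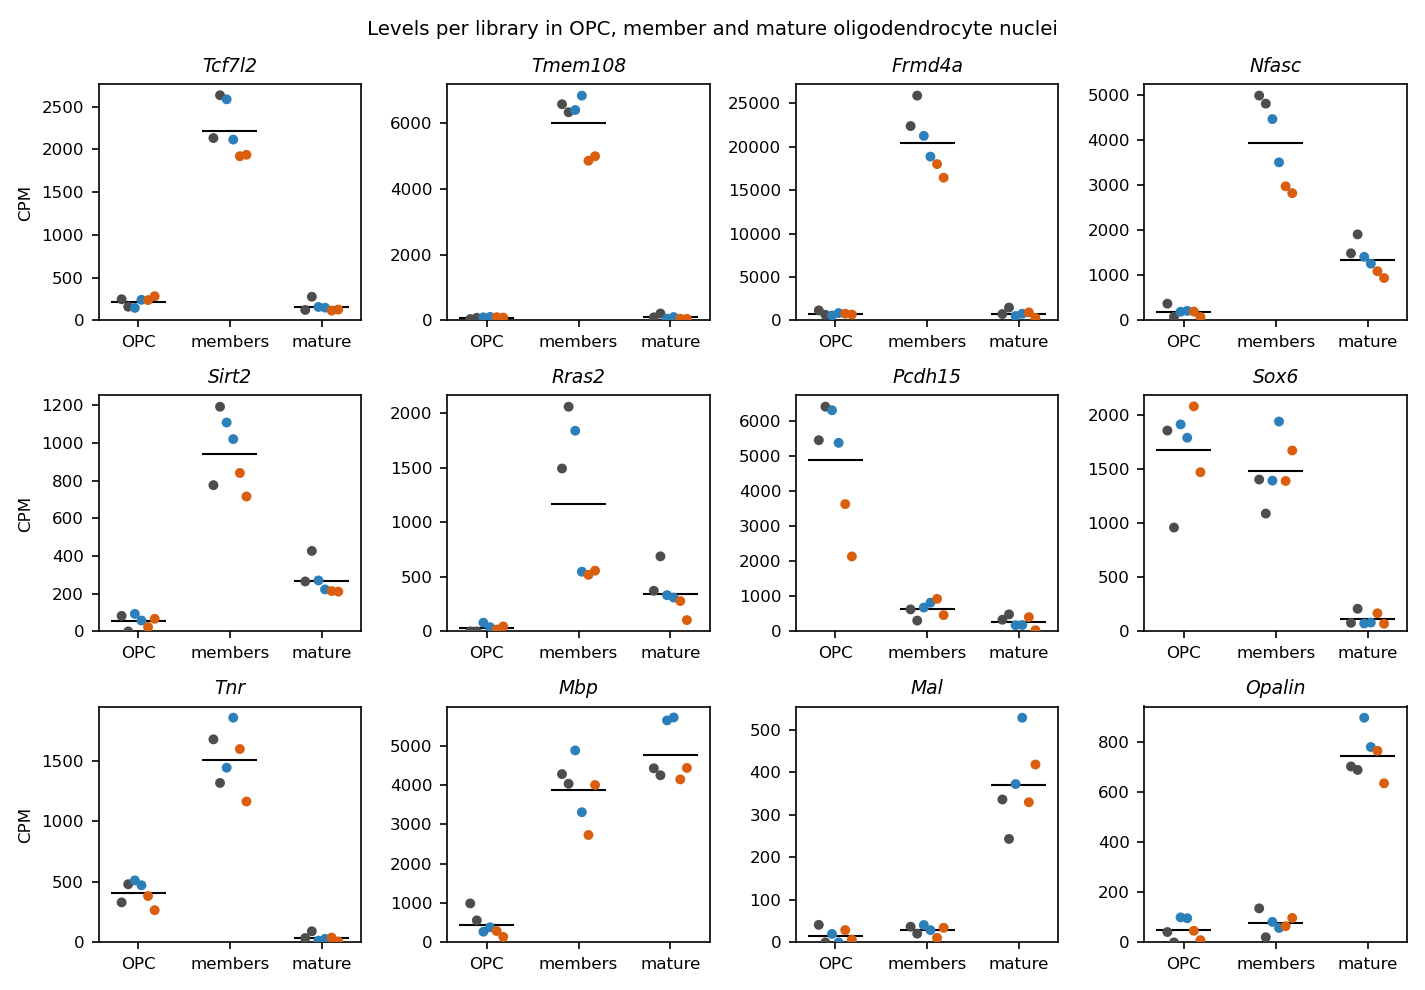
Level (CPM, linear axis from 0) of 12 genes in OPC, COP/NFOL ("members") and mature oligodendrocyte nuclei, 1 point per library (grey Sham, blue MCAO contra, orange MCAO ipsi), with lines at the means of 6 libraries. Tmem108, Frmd4a and Tcf7l2 were high only in the middle column, Sox6 overlapped between OPC and COP/NFOL nuclei, and Opalin was high only in mature nuclei.

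Sox6, which is known to hold precursors back from maturing, did not differ from OPC nuclei by the test. It stood at 1406, 1091, 1395, 1942, 1392 and 1674 CPM in COP/NFOL and 1859, 961, 1916, 1792, 2083 and 1473 CPM in OPC nuclei (log2 fold change -0.12, SE 0.19, adjusted p = 0.691, edgeR), and at 79.4, 209.6, 73.3, 82.0, 168 and 71.0 CPM in mature nuclei (log2 fold change 4.03, SE 0.23, adjusted p = 3.24e-10, edgeR). The gene Vcan, of the matrix proteoglycan versican, had similar means, with 1203 ± 400.3 CPM in COP/NFOL, 1185 ± 98.9 CPM in OPC and 136 ± 44.7 CPM in mature nuclei (mean ± SD, n = 6). A p that misses the threshold does not show that the levels were equal. The larger part of the precursor genes was lower in COP/NFOL nuclei. Of 18 tested OPC genes 13 fell and 2 rose against OPC nuclei (median -2.37 beside -0.00), while 13 of 16 were still higher than in mature nuclei (median 1.4 beside 0.02). Of all tested genes 18.2% were called lower and 20.1% higher against OPC nuclei, and 14.1% higher against mature nuclei.

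Pcdh15, a protocadherin of precursors, was among those that fell, from 5453, 6408, 6307, 5377, 3632 and 2137 CPM in OPC nuclei to 629, 309, 681, 820.1, 928 and 464 CPM in COP/NFOL nuclei, with a log2 fold change of -2.79 (SE 0.25). The 2 OPC genes that rose were Sema5a, a guidance cue, and Tnr, the matrix glycoprotein tenascin-R. Tnr stood at 1677, 1317, 1443, 1856, 1597 and 1164 CPM in COP/NFOL nuclei, at 330.5, 481, 512, 472, 383 and 266 CPM in OPC nuclei and at 36.3, 92.2, 15.1, 29.5, 39.9 and 7.8 CPM in mature nuclei. The gene was thus highest in the stage in between, with a log2 fold change of 1.98 against OPC and 5.96 against mature nuclei. Sema5a gave 2.74 and 5.27. The largest falls against OPC nuclei outside the lists were those of Shc4, Ccbe1, Flrt2, Plppr1 and Col5a3, with log2 fold changes from -3.81 to -3.14.

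Myelin genes lay between the neighbouring stages. Of 17 tested myelin and mature genes 15 rose against OPC nuclei and none fell (median 2.66 beside -0.00), and of 24 tested against mature nuclei 14 fell and none rose (median -1.09 beside 0.02). Mog, Mag, Mobp and Aspa chose the mature nuclei and were not tested against them. Of all tested genes 20.1% were called higher against OPC nuclei and 15.3% lower against mature nuclei. Mbp, the gene of myelin basic protein, stood at 4279, 4033, 4880.3, 3309, 2730.2 and 4002 CPM in COP/NFOL nuclei, against 991, 561, 273, 385, 290.1 and 140.4 CPM in OPC and 4426, 4249.7, 5643, 5718, 4145 and 4435 CPM in mature nuclei. It rose by a log2 fold change of 3.54 against OPC nuclei, and its difference from mature nuclei did not pass the test (log2 fold change -0.19, SE 0.13). Opalin and Mal, proteins of late oligodendrocytes, were still low. Opalin stood at 136, 20.6, 81.7, 57.6, 64.7 and 97.5 CPM against 701, 687, 895, 779, 763 and 634 CPM in mature nuclei (log2 fold change -3.06, SE 0.21), and Mal at 28.7 ± 11.3 CPM against 371 ± 96.1 CPM (mean ± SD, n = 6, log2 fold change -3.50). Grm3, of a glutamate receptor, fell by 2.85 on the log2 scale against mature nuclei, and Car2, Ermn, Enpp2, Cntn2, Hapln2, Apod and Anln of the myelin list also fell. Of the 8 tested genes of cholesterol synthesis, a pathway that feeds myelin membranes, none was called against mature nuclei (median -0.46 beside 0.02).

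By number, genes of the cytoskeleton and of process growth gave the most rising genes of any list against OPC nuclei. By share, the stage genes left out of the rule (11 of 12 tested) and the myelin genes (15 of 17) stood above them. Against OPC nuclei 18 of 24 tested members rose and 2 fell (median 1.33 beside -0.00), and against mature nuclei 13 of 27 rose and 4 fell (median 0.42 beside 0.02). Of all tested genes 20.1% were called higher and 18.2% lower against OPC nuclei, and 14.1% and 15.3% against mature nuclei. The 4 of 27 that fell are thus a share near that of all genes. Nfasc, of the adhesion protein neurofascin, stood at 4994, 4815, 4472, 3511, 2978 and 2826 CPM in COP/NFOL, 372, 80.1, 193, 212, 197 and 74.8 CPM in OPC and 1490.5, 1911, 1412, 1261, 1093 and 943 CPM in mature nuclei, with log2 fold changes of 4.48 and 1.67. Sema5b, a semaphorin, gave 1.85 and 3.94. Dnm3, a dynamin of endocytosis, gave 1.60 and 1.05. Robo1 and Nrcam were the 2 that fell against OPC nuclei. Of 26 further genes that are known for this stage and were left out of the rule, 11 of 12 tested rose against OPC nuclei and none fell, and 16 of 17 rose against mature nuclei while Elovl7 fell. Among them Sirt2, of a tubulin deacetylase, stood at 777, 1193, 1109, 1022, 842 and 717 CPM in COP/NFOL nuclei against 53.9 ± 35.8 CPM in OPC and 269 ± 81.9 CPM in mature nuclei (mean ± SD, n = 6), and Rras2, of a small GTPase, at 1492, 2058, 1838, 547, 518 and 556 CPM against 30.3 ± 30.9 and 347 ± 191 CPM. Rras2 was high in both Sham libraries and mMCAO contra and low in the other 3, and it was not called between MCAO ipsi and Sham (log2 fold change -1.72, SE 0.42, adjusted p = 0.055, edgeR).

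Plxnb3, a semaphorin receptor, was higher in COP/NFOL nuclei than on either side, with log2 fold changes of 3.13 against OPC and 1.87 against mature nuclei, and so was Thra, of a thyroid hormone receptor that drives maturation, with 1.71 and 0.96. Fgfr2 rose by 2.43 against OPC nuclei and fell by 1.10 on the log2 scale against mature nuclei, while Gpr37, a receptor of late oligodendrocytes, fell by 1.91 and Lpar1 by 1.38. In all, 5 of 9 tested receptors rose and 3 fell (Ntrk2, Adgrb3 and Mertk) against OPC nuclei (median 0.63 beside -0.00), and 2 of 14 rose and 5 fell against mature nuclei (median -0.24 beside 0.02). The 2 of 14 are close to the 14.1% of all tested genes called higher there. Of the BMP, Notch and Wnt genes 1 of 5 (Rnf43, 0.97) rose against OPC nuclei, where 20.1% of all tested genes were called higher, and 3 of 9 (Nkd1, Rnf43 and Notch2) fell against mature nuclei, where 15.3% were called lower. The call of Rnf43, a ligase that removes Wnt receptors, against OPC nuclei was lost without the library block (log2 fold change 0.83, adjusted p = 0.056) and without sMCAO ipsi (0.47, adjusted p = 0.13, edgeR). Of 30 cell cycle genes only Pola1 and Ezh2 passed the filter against OPC nuclei. Both fell, by 1.89 and 1.18 on the log2 scale, and the others were not tested.

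The OPC nuclei were few in Sham (18 and 14, against 94, 79, 116 and 283 in the MCAO libraries), and in 5 of 6 libraries they held more vascular RNA than the COP/NFOL nuclei, up to 1245 CPM of 9 genes in sMCAO ipsi against 183 CPM. Of the neuronal adhesion and channel genes 9 of 14 fell against OPC nuclei (median -1.11 beside -0.00 over all tested genes, of which 18.2% were called lower). Against mature nuclei 5 of 16 fell and 2 rose (median -0.29 beside 0.02, with 15.3% of all tested genes called lower and 14.1% higher), so the 2 that rose are a share near that of all genes. OPC nuclei held 12969 to 39170.1 CPM of the 16 genes and COP/NFOL nuclei 8978 to 22839.5 CPM. The part of RNA from other cells in these differences was not tested. Of the remaining lists, Ndrg1 and P4ha1, of 3 tested hypoxia genes, and Anln, of 3 cell cycle genes, fell against mature nuclei, and no heat shock gene was called on either side. Of the 105 genes named or listed and called against OPC nuclei, 97 kept their call under every alternative, and of 97 against mature nuclei 81 did.

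Among themselves the COP/NFOL nuclei were divided by the early and late genes of the rule. The nuclei with Enpp6 but no Bmp4 or Neu4 UMI (183, the Enpp6 class) were compared within each library with those that held Bmp4 or Neu4 but no Enpp6 UMI (46, the Bmp4/Neu4 class). The 125 nuclei with both were left out. The Bmp4/Neu4 class had only 5, 3, 7, 6, 12 and 13 nuclei per library, so only 440 genes passed the filter. Of these 95 were called (21.6%), 48 higher (10.9%) and 47 lower (10.7%) in the Enpp6 class. The even split depended on the filter: without it 221 of 13350 genes were called, 205 higher and 16 lower, 53 of them among the 95, and the median log2 fold change over all tested genes was 0.70 in place of 0.08. Since these 3 genes sorted the nuclei, the calls describe which other genes move along with them.

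Sema4d, a semaphorin of oligodendrocytes, and Rras2 were high in the Enpp6 class and low in the Bmp4/Neu4 class. The 125 nuclei with both kinds of UMI did not enter, and between all nuclei without and with a Bmp4 or Neu4 UMI, a contrast chosen after the data had been seen, the 2 log2 fold changes were smaller, 1.19 for Sema4d and 1.28 for Rras2 (adjusted p = 0.00655 and 0.00514, edgeR). Sema4d stood at 1453, 1404, 1572, 1690.3, 877 and 516 CPM in the Enpp6 class and at 0, 0, 94.5, 0, 62.2 and 69.4 CPM in the Bmp4/Neu4 class (log2 fold change 4.02, SE 0.53, adjusted p = 9.76e-05, edgeR, higher in 6 of 6 libraries). Rras2 had 508 UMIs in the Enpp6 class and 3 in the Bmp4/Neu4 class. Pooled over libraries this is a ratio of 38.1 after scaling to all UMIs (95% exact interval 13 to 185, counting error only). Fitted within libraries its log2 fold change was lower, at 4.64 (SE 0.54, 25.0-fold), and the means of the libraries were 1555 and 96.1 CPM. Cnksr3, a scaffold of RAS signalling, and Nckap5 stood at 1243, 1509, 1173, 719, 957 and 491 CPM and 2148, 2757, 3644, 1475, 1568 and 835 CPM in the Enpp6 class, with log2 fold changes of 3.14 and 2.71. In the Bmp4/Neu4 class Cnksr3 was at 0, 0, 0, 0, 124 and 174 CPM and Nckap5 at 0, 0, 283, 127, 373 and 312 CPM, and Sema4d, Rras2 and Cnksr3 had no UMI there in at least 3 libraries. Rnf220, Gas7, Egfem1, Auts2l1, Mob3b and Pik3r3 completed the 10 largest rises, with log2 fold changes from 2.11 to 2.57.

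Of 12 tested OPC genes 9 fell and none rose in the Enpp6 class (median -2.03 beside 0.08 over all tested genes, of which 10.7% were called lower). Without the filter on low counts 6 of the 9 (Sox6, Vcan, Gria4, Kcnd2, Dcc and Brinp3) lost their call, and without mMCAO contra 4 of them (Vcan, Kcnd2, Dcc and Brinp3), while the calls of Pcdh15, Dscam and Nxph1 were kept in both. Between all nuclei without and with a Bmp4 or Neu4 UMI 5 of the 9 lost their call (Gria4, Kcnd2, Dcc, Dscam at an adjusted p of 0.088 and Nxph1 at 0.071, edgeR), so Pcdh15 alone kept its call in all 3. Pcdh15 stood at 1882, 894, 3874, 2543, 2300.3 and 1770.3 CPM in the Bmp4/Neu4 class and at 653, 260.1, 312, 396, 239 and 36.9 CPM in the Enpp6 class (log2 fold change -3.11, SE 0.43, adjusted p = 0.000117, edgeR, lower in 6 of 6 libraries). Slc35f1, a transporter, fell by 2.61 and Tmem132d by 2.48 on the log2 scale, and Sox6 by 1.51. Sox6 was lower in the Enpp6 class than in the Bmp4/Neu4 class of every library, but without the filter its log2 fold change was -0.61 (adjusted p = 0.725, edgeR). Of 5 tested myelin genes 3 rose, among them Mbp (1.88) and Cldn11 (1.85), and none fell, while 10.9% of all tested genes were called higher. Neither Tcf7l2 nor Tmem108 passed the test between the classes (0.67, SE 0.29, and 0.28, SE 0.25, on the log2 scale), although both were far above OPC and mature nuclei in all COP/NFOL nuclei.

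**Figure D3:**
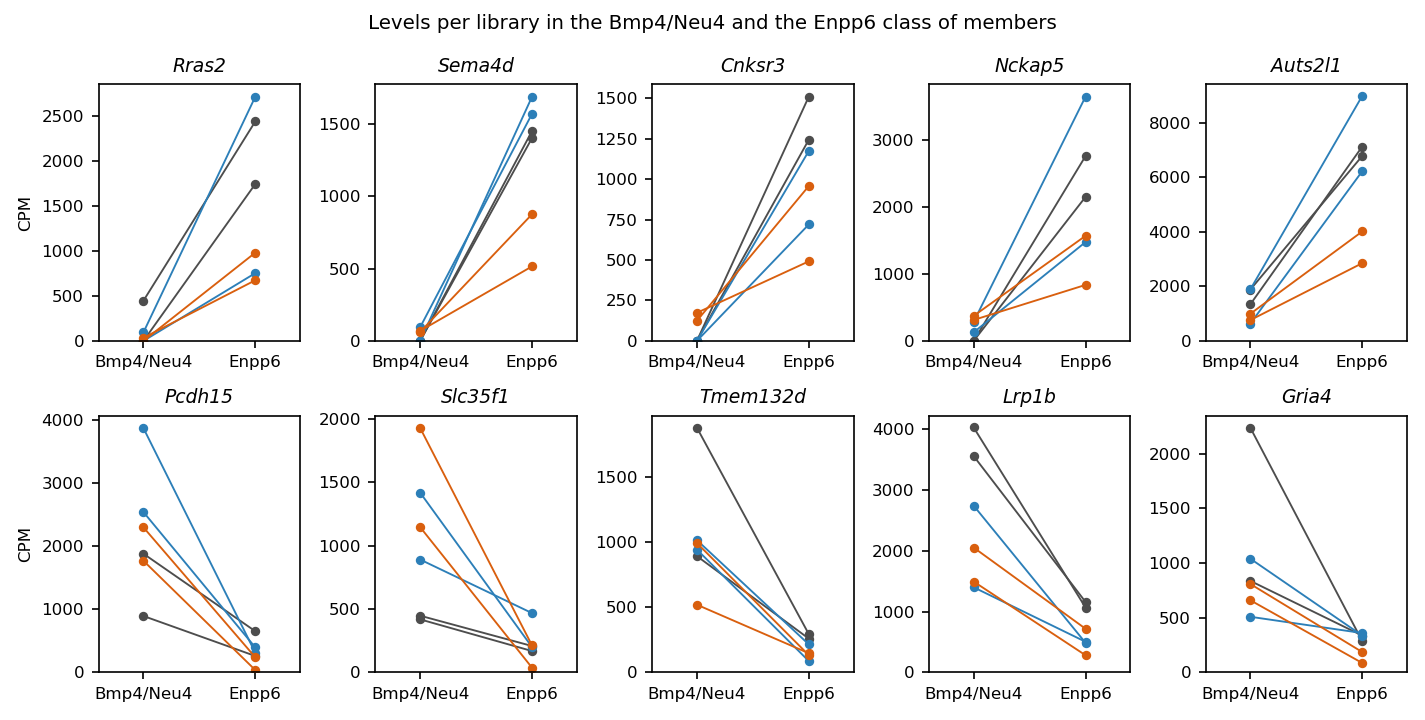
Level (CPM, linear axis from 0) of 5 genes that rose (top) and 5 that fell (bottom) from the Bmp4/Neu4 class to the Enpp6 class, with a line for each of the 6 libraries (grey Sham, blue MCAO contra, orange MCAO ipsi). Every line rises in the top row and falls in the bottom row.

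When nuclei without any Bmp4 or Neu4 UMI were compared with all nuclei that held one, a contrast chosen after the data had been seen, 64 of 828 genes were called, and 33 of the 95 genes were among them. Mob3b, Pik3r3, Gria4, Lrrtm4, Rora, Ppfia2, Frmd4a, Nfasc, Mbp, Dscam, Nxph1, Kcnq5 and Cntnap2 were among those that were not. 4 of 12 tested neuronal adhesion and channel genes also fell in the Enpp6 class (among them Kcnq5, Lrrtm4 and Cntnap2). Of all tested genes 10.7% were called lower. The call of Cntnap2 was kept in only 4 of 12 alternatives and was lost with DESeq2 and without the library block. The part of RNA from neurons in these falls was not tested. Among the 10 named genes of each direction, the call of Egfem1 was lost without mMCAO contra (log2 fold change 1.85, adjusted p = 0.058 by edgeR), as was that of Rora (-1.23, adjusted p = 0.091), and without that library 53 genes were called in place of 95.

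Nuclei with a Bmp4 or Neu4 UMI made up 41.1%, 25.0%, 48.7%, 55.8%, 60.7% and 52.8% of the COP/NFOL nuclei. Both Sham libraries lay below all 4 MCAO libraries, of either side. Thinned to 1000 UMIs, a check added after the data had been seen, the shares were 31.4%, 10.5%, 46.3%, 57.1%, 48.7% and 46.5%, over 35, 19, 54, 35, 39 and 43 nuclei, and the order of Sham below MCAO held. The intervals were wide (without thinning, 28.1% to 55.0% for Sham L, 13.6% to 39.6% for Sham R and 47.3% to 72.9% for mMCAO ipsi), and with 2 libraries a group the order was not tested. The Enpp6 class made up 57.1%, 75.0%, 51.3%, 44.2%, 37.7% and 47.2%.

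MCAO ipsi was then compared with Sham over the UMIs of all COP/NFOL nuclei, to ask which genes of this stage differ after the infarction. edgeR's quasi-likelihood test was fitted to the sums of all 6 libraries, which held 81098, 48600, 146916, 69503, 92668 and 174429 UMIs. Sham L and Sham R counted as 2 replicates, although both came from the same 4 rats. Of 2180 tested genes 33 were called (1.51%), 11 higher (0.505%) and 22 lower (1.01%) in MCAO ipsi. This lean did not hold throughout. Without nuclei with at least 3 UMIs of Mog, Mag, Mobp and Aspa, an alternative chosen after the data had been seen, 7 were higher and 7 lower. Higher calls outnumbered lower ones when sMCAO ipsi or Sham R was left out, and lower calls were more numerous in the other alternatives. Few genes could be tested at this depth, since only genes of fair abundance passed the filter. In these sums fewer nuclei with a gene and less of its RNA per nucleus cannot be told apart.

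Myo1e, of an unconventional myosin, had no UMI in Sham and 84 in MCAO ipsi. Its level was 0, 0, 61.3, 57.6, 183 and 384 CPM, at least 13.6-fold higher in MCAO ipsi when Sham is set to 3 UMIs over the group (adjusted p = 0.00441, edgeR), and the call was kept in each of 11 alternatives that could test it. In mature nuclei the gene was found in every library (202, 201, 258, 219.7, 235 and 397 CPM). Fth1, of the heavy chain of the iron store ferritin, had 1 UMI in Sham and 66 in MCAO ipsi, a ratio of 32.0 (95% exact interval 5.56 to 1285, counting error only), with 0, 20.6, 40.8, 86.3, 162 and 292 CPM. Both genes were low in Sham, in between in MCAO contra and highest in MCAO ipsi. Fth1 was highest in sMCAO ipsi in mature nuclei (43.1, 92.2, 74.4, 98.4, 113 and 530 CPM) and in glutamatergic nuclei (10.7, 17.4, 23.5, 33.1, 30.9 and 78.8 CPM) as well. The call of Fth1 was lost without Sham L (log2 fold change 3.42, adjusted p = 0.13) and without sMCAO ipsi (4.13, adjusted p = 0.20, edgeR), and with DESeq2 (4.84, adjusted p = 0.14).

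Col11a1, of a fibrillar collagen chain, is a gene that COP/NFOL nuclei themselves carried more than their neighbours did. It stood at 222, 103, 252, 388, 583 and 1433 CPM in COP/NFOL nuclei, while mature nuclei had 20.4, 25.1, 14, 21.3, 23.3 and 14.8 CPM and OPC nuclei 0, 80.1, 59.9, 57.8, 220.4 and 125 CPM. Against Sham it rose in MCAO ipsi (log2 fold change 2.56, SE 0.48, adjusted p = 0.0221, edgeR), with the highest value in sMCAO ipsi, and the call was lost without Sham R (2.18, adjusted p = 0.18). Dpy19l1 (111, 20.6, 129, 71.9, 281 and 459 CPM), Rad51b, of a protein of DNA repair (49.3, 0, 61.3, 28.8, 291 and 252 CPM), Plekhm3 (49.3, 41.2, 68.1, 57.6, 227 and 218 CPM) and Brinp3, a gene of the OPC list (148, 61.7, 197, 259, 378 and 373 CPM), were also called higher. Within the Enpp6 class alone Brinp3 stood at 168, 26.0, 137, 396, 319 and 24.6 CPM, lowest in sMCAO ipsi. Rad51b was also highest in MCAO ipsi in mature nuclei (72.6, 126, 110, 96.7, 276 and 202 CPM). So was Plekhm3 in mature nuclei (113, 134, 132, 120, 223 and 183 CPM). In OPC nuclei the same held for Rad51b (248, 80.1, 126, 366, 423 and 521 CPM) but not for Plekhm3. Dpy19l1 and Brinp3 were not so in either kind. Over all COP/NFOL nuclei each of these 4 genes was highest in the 2 MCAO ipsi libraries. Their calls were lost without Sham R, and none of them was called by DESeq2. Over all alternatives their highest adjusted p by edgeR or DESeq2 lay between 0.15 (Rad51b) and 0.48 (Brinp3).

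**Figure D4:**
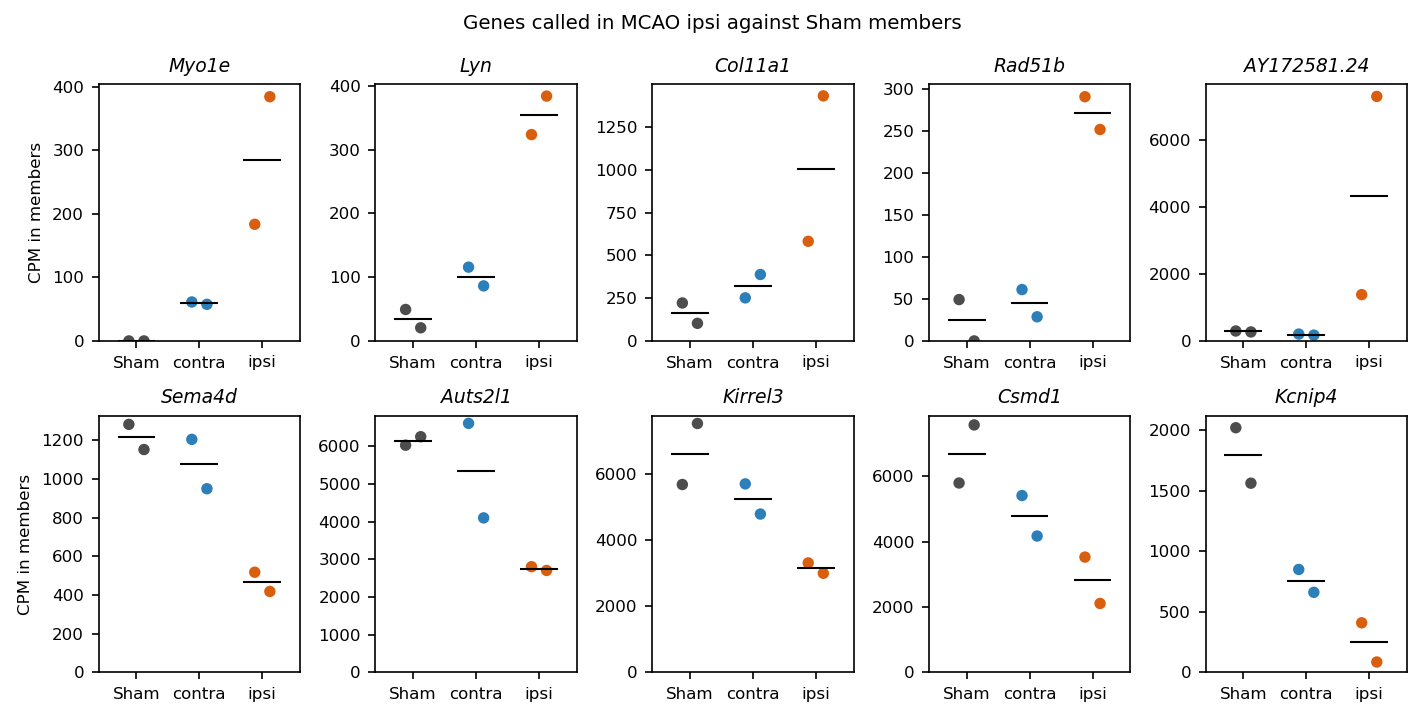
Level (CPM, linear axis from 0) in COP/NFOL nuclei of 10 genes called between MCAO ipsi and Sham, with 1 point per library and lines at the group means. The top row shows genes that were higher and the bottom row genes that were lower in MCAO ipsi. Most were named by a rule that asks for groups without overlap, which 45.2% of all tested genes met, and AY172581.24 reaches its highest value, 7292 CPM, in sMCAO ipsi.

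Lyn, of a SRC-family kinase, stood at 49.3, 20.6, 116, 86.3, 324 and 384 CPM and rose against Sham (log2 fold change 3.17, SE 0.47, adjusted p = 0.00441, edgeR). It is a gene of the myeloid list as well. The 15 myeloid genes summed to 271, 165, 374, 360, 1360 and 912 CPM in COP/NFOL nuclei, all 15 had at least 1 UMI over all libraries, and Lyn was the most abundant with 125 UMIs. In mature nuclei the sum was highest in MCAO ipsi too, with 97.6, 184, 205, 254, 1365 and 1092 CPM. Without the COP/NFOL nuclei that also held mature UMIs, a choice made after the data had been seen, the call of Lyn was lost (2.30, adjusted p = 0.26, edgeR). The part of myeloid RNA in this rise was not tested further. 2 features of the mitochondrial genome that the limit on mitochondrial UMIs did not count, AY172581.24 (296, 267, 204, 173, 1381 and 7292 CPM) and AY172581.9 (86.3, 20.6, 34.0, 57.6, 183 and 1198 CPM), and Mt-co3 (74.0, 41.2, 47.6, 101, 216 and 464 CPM), of a subunit of cytochrome c oxidase, rose too, mostly in sMCAO ipsi. In OPC, mature and glutamatergic nuclei AY172581.24 was highest in sMCAO ipsi as well, with 7267, 11122 and 1366 CPM there. Without sMCAO ipsi, Mt-co3 (1.79, adjusted p = 0.26) and AY172581.9 (1.58, adjusted p = 0.50) were no longer called by edgeR.

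Of the 22 genes that fell, 18 (81.8%) had a higher mean level in glutamatergic neuron nuclei than in COP/NFOL nuclei of Sham, against 682 of all 2180 tested genes (31.3%) and 7 of the 11 that rose (63.6%). The Sham level enters both the call and this count. It was the low side for the 11 and the high side for the 22, so the 63.6% is no fair comparator and these shares only describe the genes. Kcnip4, of a protein that binds potassium channels, stood at 2022, 1564, 851, 662, 410.1 and 86.0 CPM in COP/NFOL nuclei and at 15228, 15198, 13313, 12546, 13399 and 12421 CPM in glutamatergic nuclei (log2 fold change -3.01, SE 0.47, adjusted p = 0.00558, edgeR). The same order of Sham, MCAO contra and MCAO ipsi was seen in OPC nuclei (2024, 2643, 1111, 964, 603 and 135 CPM) and in mature nuclei (3169, 2607, 1286, 1352, 989.6 and 190.3 CPM). Hs6st3, Cdh12, Cntn5, Etl4, Trpm3, Kctd16, Grm5, Tenm2 and Galntl6 completed the 10 largest falls, with log2 fold changes from -1.86 to -3.05. Genes named for their size had to have groups that do not overlap, as 985 of all 2180 tested genes did (45.2%). In the fixed list of 16 neuronal adhesion and channel genes 5 fell (Kcnip4, Grm5, Rbfox1, Csmd1 and Ptprd) and none rose, with a median of -1.21 beside 0.03 over all tested genes. Of all tested genes 1.01% were called lower. Kcnip4, Grm5, Rbfox1 and Ptprd were not called by DESeq2 (adjusted p = 0.072, 0.079, 0.051 and 0.068). Grm5, Rbfox1 and Ptprd also lost their call when either Sham library was left out. The list summed to 21024, 22840, 14784, 13136, 12507 and 8978 CPM in COP/NFOL nuclei, and Snap25, Syt1 and Rbfox3 to 801, 1132, 565, 475, 410 and 143 CPM. In COP/NFOL, OPC and mature nuclei alike, both sums were highest in Sham, in between in MCAO contra and lowest in MCAO ipsi. Their part in the lower genes was not tested further. In COP/NFOL nuclei without a UMI of the 3 neuronal genes, 20 genes of 820 were called, and 10 of the 33 were among them. Of the 10 largest falls, Kcnip4 and Trpm3 kept their call there, while Grm5 (-1.85, adjusted p = 0.20) and Tenm2 (-0.56, adjusted p = 0.86, edgeR) lost it and the other 6 did not pass the filter on low counts. Ptprd (-0.81, adjusted p = 0.27, edgeR), Kalrn, Sgcz and Phactr1 lost their call as well.

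**Figure D5:**
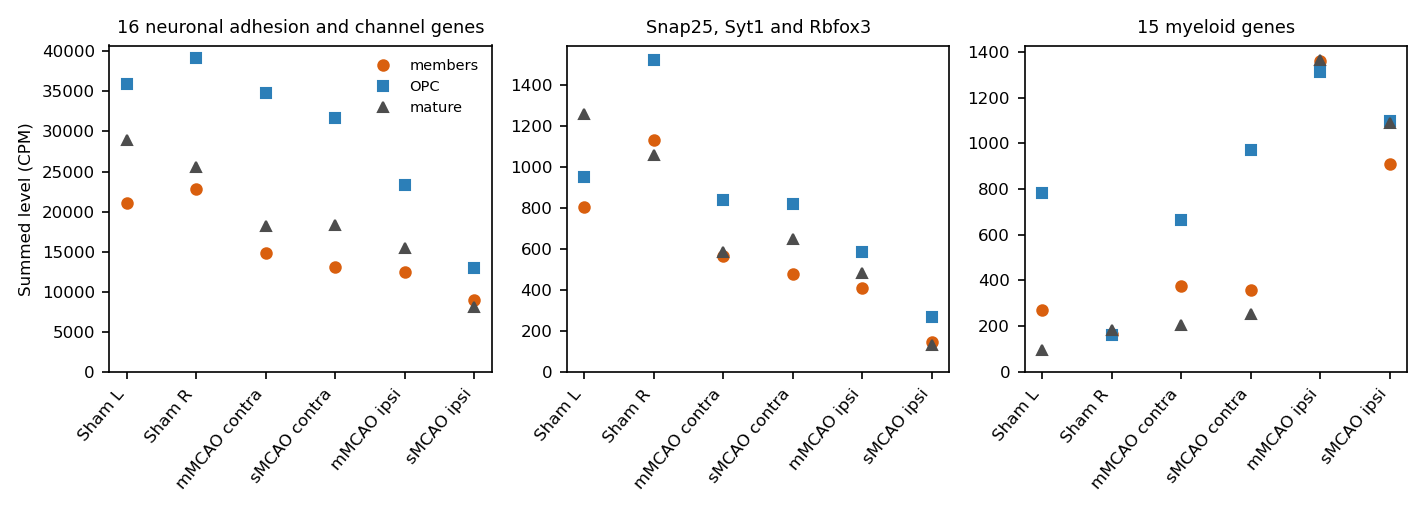
Summed level (CPM) of 16 neuronal adhesion and channel genes, of Snap25, Syt1 and Rbfox3, and of 15 myeloid genes in COP/NFOL ("members"), OPC and mature oligodendrocyte nuclei of each library. The neuronal sums are highest in Sham and lowest in sMCAO ipsi in all 3 kinds of nuclei, and the myeloid sums of COP/NFOL and mature nuclei are highest in mMCAO ipsi and sMCAO ipsi.

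The other 4 genes that fell, Sema4d, Auts2l1, Kirrel3 and Carmil1, were higher in COP/NFOL nuclei of Sham than in glutamatergic nuclei, and they were singled out after their values had been seen. Sema4d stood at 1282, 1152, 1205, 949.6, 518 and 419 CPM in COP/NFOL nuclei, against 67.7, 69.8, 74.7, 81.3, 75.7 and 65.1 CPM in glutamatergic nuclei and 368, 461, 389, 369, 269 and 246 CPM in mature nuclei, and fell in MCAO ipsi (log2 fold change -1.41, SE 0.28, adjusted p = 0.0222, edgeR). Auts2l1 stood at 6029.7, 6255, 6609, 4101, 2806 and 2706 CPM (log2 fold change -1.17, SE 0.23, adjusted p = 0.0222, edgeR), with 1748, 1602, 1703, 1867, 1584 and 1481 CPM in glutamatergic nuclei. In COP/NFOL nuclei the 2 MCAO ipsi libraries lay close together and below the 4 others in both genes. They were the lowest in mature nuclei too, where Auts2l1 stood at 3235, 3638, 3725, 3895, 2989 and 2736 CPM. For Auts2l1 they were also the lowest in glutamatergic nuclei. In OPC nuclei they were not the lowest 2 for either gene. Kirrel3, of an adhesion protein, stood at 5684, 7531, 5704, 4791, 3313 and 2998 CPM (log2 fold change -1.08). The MCAO ipsi libraries were lowest for Kirrel3 in mature nuclei (2348, 2867, 2252, 1656, 1369 and 777 CPM) and in OPC nuclei (950, 561, 652, 491, 487 and 340 CPM) as well. Carmil1, of a regulator of actin capping, stood at 432, 617, 558, 489, 227 and 138 CPM (log2 fold change -1.56). The MCAO ipsi libraries were lowest for Carmil1 in mature nuclei as well (102, 184, 60.4, 108, 54.9 and 35.9 CPM), but not in OPC nuclei. Sema4d and Auts2l1 are also genes that were higher in the Enpp6 class. Within that class alone Sema4d was 1453, 1404, 1572, 1690.3, 877 and 516 CPM and Auts2l1 6781, 7127, 8984, 6222, 4013 and 2850.4 CPM, so the MCAO ipsi libraries were the lowest there as well.

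These calls rest on few libraries. Kirrel3 also lost its call in COP/NFOL nuclei without a neuronal UMI (log2 fold change -0.66, adjusted p = 0.31, edgeR), and the other 3 did not. All 4 lost their call without Sham R, Sema4d, Auts2l1 and Carmil1 also without Sham L, and Sema4d and Carmil1 without sMCAO ipsi. Sema4d (-1.45, adjusted p = 0.11) and Carmil1 (-1.57, adjusted p = 0.27, edgeR) also lost theirs without the nuclei that held mature UMIs, an alternative chosen after the data had been seen, and Carmil1 by DESeq2 (adjusted p = 0.135) and without the nuclei of highest doublet scores (adjusted p = 0.0708, edgeR). The 4 genes had adjusted p by edgeR or DESeq2 of at most 0.15 for Sema4d, 0.18 for Auts2l1, 0.31 for Kirrel3 and 0.31 for Carmil1 over the alternatives, while their log2 fold changes stayed between -1.57 and -1.24, -1.22 and -1.06, -1.29 and -0.66, and -2.23 and -1.17. Which genes were called, and how many, changed with the library that was left out. Without sMCAO ipsi, most of the 33 genes were not among those called. Each such fit leaves 1 library in a group. Of the 33 genes, Myo1e and AY172581.24 kept their call in every alternative that could test them.

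Against MCAO contra, the other hemisphere of the same rats, 4 of 2180 genes were called in MCAO ipsi (0.183%), all higher: AY172581.24 (log2 fold change 4.50), AY172581.9 (4.07), Mt-co3 (2.42) and Lyn (1.75), with adjusted p of 0.00371 for the first and 0.0485 for the other 3 (edgeR). With the rat pool as a block, which pairs the hemispheres, 15 genes were called, 11 higher and 4 lower. Leaving out 1 library gave 12 (Sham L), 7 (Sham R), 15 (mMCAO contra), 39 (sMCAO contra), 83 (mMCAO ipsi) and 4 (sMCAO ipsi) called genes, and a fit to these 2 groups alone gave 0. Without the COP/NFOL nuclei that held mature UMIs, chosen after the data had been seen, Lyn was at 0.47 (adjusted p = 0.86) and, like AY172581.9 and Mt-co3 (adjusted p = 0.188 each, edgeR), was no longer called. AY172581.9 (2.03, adjusted p = 0.46), Mt-co3 (1.64, adjusted p = 0.38) and Lyn (1.56, adjusted p = 0.16, edgeR) also lost their call without sMCAO ipsi. Among genes that did not pass, Carmil1, Sema4d, Cntn5, Auts2l1 and Kalrn had the lowest p of those that were lower in MCAO ipsi, and Rad51b the lowest of those that were higher. Sema4d was -1.23 (SE 0.28, adjusted p = 0.0998, edgeR), and Auts2l1 was -0.97 (SE 0.23, adjusted p = 0.121). Under the block both passed, at adjusted p = 0.026 each, as did Carmil1 (-1.55, adjusted p = 0.022) and Rad51b (2.48, adjusted p = 0.014, edgeR). This comparison shares the MCAO ipsi libraries with the one against Sham.

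MCAO contra and Sham did not give a single call. Of 2180 genes 0 passed (0%, edgeR and DESeq2 alike), with a lowest adjusted p of 0.446, while 120 had an unadjusted p under 0.05 by edgeR and 31 by DESeq2. The genes of lowest p were Snx29, Bach2, Pde3b, Pou2f1 and Myo1e among those that were higher and Tafa2, Epha6, Plcb1, Fbxl5 and Trpm3 among those that were lower in MCAO contra. Snx29 stood at a mean ± SD of 408 ± 48.3 CPM in MCAO contra and 125 ± 31.9 CPM in Sham (n = 2, log2 fold change 1.66, SE 0.38). Snx29 and Epha6 passed when either MCAO ipsi library was left out of the fit (adjusted p = 0.036 without mMCAO ipsi and 0.039 without sMCAO ipsi, edgeR, 3 genes called each time).

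Few genes of the lineage lists were called with the infarction, as few were among all tested genes (1.51%). Between MCAO ipsi and Sham 0 of 18 tested stage genes outside the rule were called (median -0.42 beside 0.03), 0 of 14 lineage transcription factors (median 0.14), 0 of 20 myelin genes (median 0.05), 0 of 6 BMP, Notch and Wnt genes (median 0.31), 0 of 10 receptors (median -0.29) and 0 of 4 cholesterol genes (median -0.31). Of 24 cytoskeleton genes only Sema4d was called and fell (median -0.30), and of 16 OPC genes only Brinp3 was called and rose (median 0.28). Tcf7l2 (log2 fold change -0.31, SE 0.24, adjusted p = 0.594, edgeR) and Mbp (log2 fold change -0.31, SE 0.25, adjusted p = 0.617, edgeR) were thus without a call. A p that misses the threshold does not show that they were equal. The lists of cell cycle, immediate early and stress response, interferon and antigen presentation, and hypoxia and glycolysis genes had no member above the filter, so a change in them was not detectable at this depth. Both tested heat shock genes were without a call.

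A list of 12 genes that the study names for OPCs of infarcted tissue, taken from these same samples and hence no independent evidence, had no member above the filter either. All 12 had UMIs. Cd44, of the receptor for hyaluronan and osteopontin, had 0 UMIs in both Sham and both MCAO contra libraries, 6 in mMCAO ipsi and 10 in sMCAO ipsi (0, 0, 0, 0, 64.7 and 57.3 CPM), and OPC nuclei had 0, 0, 0, 9.64, 151 and 214 CPM. Runx1, a transcription factor, stood at 12.3, 0, 20.4, 14.4, 162 and 74.5 CPM with 1, 0, 3, 1, 15 and 13 UMIs, and Vim, of the filament vimentin, at 0, 0, 6.81, 14.4, 32.4 and 80.3 CPM. These 3 were highest in the 2 MCAO ipsi libraries, on few UMIs, and were not tested. Runx2 had 1, 0, 0, 0, 4 and 9 UMIs, Il33 had 1, 0, 1, 0, 0 and 9, Met had 0, 0, 1, 0, 1 and 4, Iqgap1 had 5, 2, 6, 1, 4 and 11 and Tnc had 2, 1, 0, 1, 5 and 1. For Ccnf there were 0, 1, 0, 1, 2 and 8 UMIs, for Axl 0, 0, 0, 1, 1 and 1, for Fgf2 0, 0, 0, 1, 0 and 2, and for Vgf 1, 0, 0, 0, 1 and 0. Several of these were highest in sMCAO ipsi, which also held the most UMIs, and Tnc and Vgf were not. Runx1 is expressed by myeloid cells too. Of the 13 genes that the study names for mature oligodendrocytes of infarcted tissue, 5 were tested and none was called (median 0.31). Stat3, a transcription factor of cytokine signalling, had 3, 3, 9, 6, 10 and 48 UMIs, that is 37.0, 61.7, 61.3, 86.3, 108 and 275 CPM, and so was high in sMCAO ipsi alone.

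Markers of further cell types were low in COP/NFOL nuclei. The 11 astrocyte genes summed to 333, 679, 191, 763, 475 and 247 CPM with overlap of all groups, all 11 had a UMI, and Slc1a2 was the most abundant with 59 UMIs. The vascular genes summed to 136, 0, 74.9, 129, 151 and 183 CPM, with Vtn, Col1a1 and Col1a2 at 0 in every library and Ebf1 the most abundant with 54 UMIs. The 11 neuron markers outside the rule summed to 407, 391, 381, 216, 345 and 183 CPM, with Slc17a6 at 0 and Ryr2 the most abundant with 98 UMIs, against 3279 to 3528 CPM in glutamatergic nuclei.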

How the data were processed

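Nuclei from frozen coronal slices, separated by hemisphere, were profiled with 10x Genomics 5' chemistry. The deposited values are raw UMI counts per gene and barcode, which the authors made with Cell Ranger 7.0.0 on mRatBN7.2 with intronic reads included. The study's correction of free RNA, its filters and its doublet removal are not part of these counts. The 6 libraries held 73826 barcodes and 33012945 to 52513380 UMIs each.

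The members and gene lists were chosen with earlier results of these data known. The rule was applied to the raw counts of each nucleus. No doublets were removed. Scrublet scores (scanpy 1.11.5) served only to leave out the highest 5% of each library as an alternative. Glutamatergic nuclei (at least 2 Slc17a7 UMIs) served as nuclei outside the lineage to compare with. For genes that neurons express, such as Kcnip4 and Fyn, their levels hold the neurons' own RNA. Free RNA was not measured. UMIs were summed per library and kind of nucleus, and edgeR 4.0.16 (TMM, filterByExpr, quasi-likelihood F test, Benjamini-Hochberg) was fitted to all genes but those of the rule, tested on simulated data beforehand. Mog, Mag, Mobp and Aspa, which chose the mature nuclei, were also left out of the comparison with mature nuclei. Calls were made at an adjusted p under 0.05 where the log2 fold change was 0.6 or more in size. Comparisons of stages had library as a block, those of Sham, MCAO contra and MCAO ipsi none. MCAO hemispheres came from the same rats, so the fit with the rat pool as a block was an alternative. The deviations of paired libraries correlated at -0.083 over 2180 genes. Libraries are pools of rats, so p-values measure the spread between pooled libraries that also differ in severity.

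Genes were named when called, at a mean of at least 50 CPM in the higher group, without overlap of the groups, the 10 largest in each direction, with called members of the fixed lists. Where fewer than 5 genes were called in a direction, those with the 5 lowest p were named. Carmil1, Kirrel3, Auts2l1 and Sema4d were described further after their values had been seen. DESeq2 1.42.0, other size factors, no filter on low counts, each library left out and stricter rules were the alternatives. Intervals are exact binomial or Poisson and cover counting error only. Folds against 0 UMIs used a floor of 3 UMIs over the group. Genes not found by symbol, such as Ptprz1 and Lhfpl3, were not analysed here, and results of a few further genes are not reported here.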

Additional observations from a re-analysis of the deposited data

How the results depend on the processing

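The share of COP/NFOL nuclei moved with the rule. Without any neuronal UMI it was 0.137% and 0.0881% in Sham, 0.193% (mMCAO) and 0.157% (sMCAO) in MCAO contra, and 0.263% and 0.612% in MCAO ipsi. With at least 3 UMIs of the first gene set it was 0.213% and 0.205% in Sham, 0.345% in mMCAO contra, and 0.270% and 0.450% in MCAO ipsi, and with thinning 0.313% and 0.156% in Sham and 0.634% in sMCAO ipsi. As a share of all nuclei, sMCAO ipsi was highest each time. Among the nuclei of the lineage it was not, at 5.82%. The limit without neuronal UMIs kept 73.6% of the COP/NFOL nuclei of sMCAO ipsi, a larger part than in any other library.

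Counts of called genes between MCAO ipsi and either other group depended strongly on the settings, and the cause was not tested. MCAO ipsi against Sham gave 33 genes, and 10 with DESeq2, 97 (43 higher, 54 lower) without the filter, 20 without neuronal UMIs (820 genes tested), 14 without nuclei with mature UMIs (added after seeing the data) and 6 to 174 with 1 library left out. MCAO ipsi against MCAO contra gave 4, and 1 with DESeq2, 1 with RLE size factors, 36 (22 higher, 14 lower) without the filter, 0 with the 2 groups alone, 8 without neuronal UMIs, 1 without the highest doublet scores, 1 without nuclei with mature UMIs and 4 to 83 with 1 library left out. MCAO contra against Sham gave 0, and 0 to 3 with 1 library left out.

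Between the stages, the Enpp6 and Bmp4/Neu4 classes gave 95 genes, 221 without the filter (205 higher, 16 lower) and 53 to 104 with 1 library left out. Without the filter 1572 genes were called against OPC nuclei and 1523 against mature nuclei. With the rat pool as a replicate block, 15 genes were called between MCAO ipsi and MCAO contra, among them all 4 of the fit without it. Without the library block the stage comparisons gave 106 (classes), 757 (OPC) and 834 (mature) genes.

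Of 3388 values of named or listed genes under an alternative, 3081 kept direction and call, 278 lost the call, 29 gained one and none reversed. In MCAO ipsi against Sham 2 of 33 genes kept their call throughout, against 97 of 105 for OPC nuclei. With 356 nuclei and 613214 UMIs, genes of low abundance could not be tested, and 2 libraries a group limit every comparison of Sham and MCAO.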
